A study of Mus musculus with 24 samples.

Results

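Monocytic and granulocytic myeloid-derived suppressor cells were compared in untreated mice whose libraries carry the WT label. Monocytic cells are called M-MDSCs here and granulocytic, or polymorphonuclear, cells PMN-MDSCs. The comparison set the 3 M-MDSC libraries against the 3 PMN-MDSC libraries, 6 of the 24 libraries in the series. Of 23479 genes in the table, 11505 had 10 or more normalized read counts in at least 3 of these 6 libraries and were tested.

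All 6 libraries came from C57BL/6 mice bearing B16 melanomas, a transplanted mouse tumour line, and the tumours had grown past 25 mm2. Both cell types were isolated from spleen by flow cytometry at a stated purity above 99%, and these mice had received no lymphodepleting drugs. Age and sex are not given in the labels. The design gives 3 mice, and the labels do not say which M-MDSC and PMN-MDSC libraries came from the same mouse, nor which surface antigens set the gates. Total RNA, 100 ng per library, was sequenced after probe-based depletion of ribosomal RNA. The other libraries used here were the 6 untreated libraries with the KO (IL-6KO) label, and the 6 WT-labelled libraries from mice taken 7 days after cyclophosphamide and fludarabine. Il6 itself went against the genotype labels: it had 0 to 7.20 normalized counts across the 12 WT-labelled libraries and 16.2 to 219.7 across the 12 KO-labelled libraries. Genotypes are therefore given as labels throughout.

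MDSCs are myeloid cells that accumulate in tumour-bearing hosts and restrain T cells. M-MDSCs resemble inflammatory monocytes and carry Ly6C, CCR2 and the CSF1 receptor; PMN-MDSCs resemble neutrophils and carry Ly6G, CXCR2 and the G-CSF receptor. Both arise from shared bone marrow progenitors, in which IRF8 and KLF4 favour the monocyte fate and C/EBP-epsilon and GFI1 favour the granulocyte fate.

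The M-MDSC libraries held 7237462 to 8716391 reads and the PMN-MDSC libraries 5509190 to 8863377, the lowest being PMN-MDSC replicate 3. A read was detected for 13391 to 13778 genes per M-MDSC library and for 15611 to 17863 genes per PMN-MDSC library. The precursor ribosomal RNA Rn45s took 11.3% to 12.6% of the counts in M-MDSCs and 4.09% to 15.5% in PMN-MDSCs, the highest share being in PMN-MDSC replicate 3. The nuclear RNA Malat1 took 2.36% to 2.94% in M-MDSCs and 4.79% to 6.80% in PMN-MDSCs. Their part in the differences below was not tested. Pearson correlations of log2 values across the tested genes were 0.978 to 0.981 between M-MDSC libraries, 0.939 to 0.961 between PMN-MDSC libraries and 0.744 to 0.771 between the cell types.

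A majority of the tested genes separated the cell types. At an adjusted p below 0.05, 3014 genes were called higher in M-MDSCs and 3323 lower, together 55.1% of those tested (26.2% higher, 28.9% lower). The M-MDSC and PMN-MDSC libraries did not overlap for 71.0%. Where the counts of a gene list lie near these shares, they show no more than the tested genes as a whole do. The falls reached further than the rises: 354 genes were called lower by more than 4 on the log2 scale and 45 higher by as much, and beyond 6 there were 77 lower and 1 higher. Of the tested genes, 508 reached 10 counts in none of the M-MDSC libraries and 162 reached it in none of the PMN-MDSC libraries. Such genes passed the filter only through the other cell type, which fixed the direction of their difference. These differences are between M-MDSC and PMN-MDSC levels after each library was scaled by the authors' size factor, and are not amounts per cell. Fewer cells of a type and less RNA per cell cannot be told apart in bulk libraries.

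The balance between rises and falls depended on how libraries were scaled. The median log2 difference was 0.07 with the authors' size factors, 0.21 after trimmed mean (TMM) scaling, 0.17 after quantile normalization and 0.68 when each library was divided by its total count (library-total scaling). The corresponding splits were 3445 higher and 2983 lower with TMM scaling, 3203 and 2661 after quantile normalization, and 5549 and 1872 with library-total scaling. Leaving Rn45s and Malat1 out of the total gave 5621 higher and 1899 lower. As a share of the calls, the higher ones were 47.6% with the authors' size factors, 74.8% with library-total scaling and 35.7% when no filter on low values was used. Values below use the authors' size factors. Of 5743 called genes that could be tested with any 1 of the 6 libraries left out, 4253 were called each time.

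**Figure D1:**
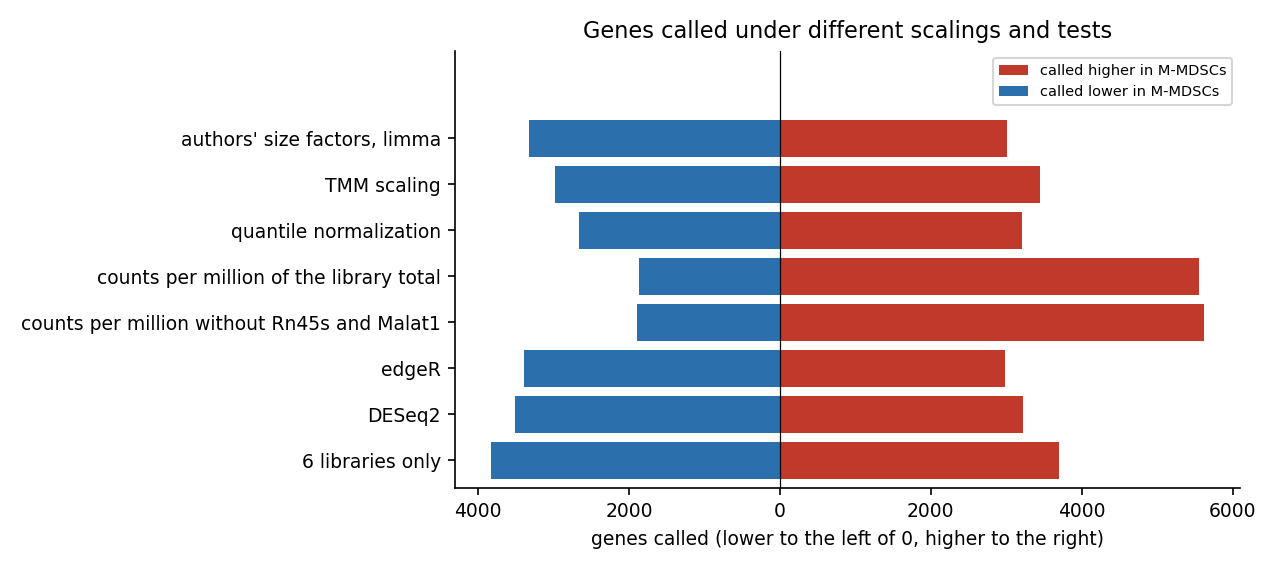
Bars to the right of 0 count genes called higher in M-MDSCs and bars to the left genes called lower, for each scaling or test. Dividing by library totals moved the split to 5549 higher and 1872 lower, against 3014 and 3323 with the authors' size factors.

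Monocyte genes marked the M-MDSC libraries. In the classical monocyte list, 17 of 20 tested members were called higher in M-MDSCs and 2 lower, with a median log2 difference of 2.92 beside 0.07 for all genes. Ccr2, the receptor for CCL2 that draws monocytes out of the bone marrow, had 5288, 5623 and 5477 in M-MDSCs, against 181, 144 and 69.6 in PMN-MDSCs. Every M-MDSC library was far above every PMN-MDSC library, by a log2 difference of 5.47 ± 0.46 (SE; limma adjusted p = 2.59e-09). Ly6c2, which encodes the Ly6C antigen used to define monocytic cells, had 366, 633 and 644 in M-MDSCs, against 111, 82.8 and 78.4 in PMN-MDSCs, a difference of 2.55 ± 0.57. The groups did not overlap, although M-MDSC replicate 1 was below the other M-MDSC libraries; reads of Ly6c2 and its near-identical neighbour Ly6c1 may have been shared out between them. Csf1r, the CSF1 receptor, differed less: it had 8461, 9519.5 and 9264 in M-MDSCs, against 4432, 3821 and 4520.4 in PMN-MDSCs, a difference of 1.09 ± 0.35, and the groups were apart.

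Coagulation and matrix genes carried by monocytes were higher in M-MDSCs, and F13a1, Fn1 and Vcan were among the 12 largest rises. F13a1, coagulation factor XIII A, averaged 6541 ± 139 in M-MDSCs and 257 ± 83.6 in PMN-MDSCs (SD, n = 3 each), a log2 difference of 4.72 ± 0.26. F10, coagulation factor X, averaged 1493 ± 129 in M-MDSCs and 124 ± 47.3 in PMN-MDSCs, a difference of 3.66 ± 0.31. Fn1, fibronectin, had 20223, 31663 and 25667 in M-MDSCs, against 673, 728 and 759.6 in PMN-MDSCs. Its M-MDSC libraries ranged more widely than its PMN-MDSC libraries without meeting them, and the difference was 5.14 ± 0.38. Vcan, the proteoglycan versican, had 5545, 2907 and 3788 in M-MDSCs, against 247, 106 and 128 in PMN-MDSCs, with M-MDSC replicate 1 highest, and a difference of 4.71 ± 0.59. Against the direction of the list, Emb, embigin, was lower in M-MDSCs at -0.75, and Mgst1 did not pass the test at 0.18. The call for Emb was lost with library-total scaling (-0.06) and after quantile normalization.

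The remaining largest rises were of varied function. Rab36, a small GTPase, had 216, 329.7 and 307 in M-MDSCs, against 3.67, 2.4 and 2.18 in PMN-MDSCs, the largest rise of the 12 at 6.25 ± 0.95. Met, the hepatocyte growth factor receptor, had 412, 490.4 and 439 in M-MDSCs, against 6.12, 8.4 and 37 in PMN-MDSCs, a difference of 5.03 ± 0.69, with PMN-MDSC replicate 3 the highest of its group. Crip1, a LIM-domain protein, differed by 4.81 ± 0.74, Ccdc109b, a mitochondrial calcium uniporter subunit, by 5.13 ± 1.23, and Tppp3, a tubulin-binding protein, by 4.67. The other 3 belonged to the Ms4a family of membrane proteins on chromosome 19: Ms4a8a at 5.56 ± 0.72, Ms4a6d at 4.95 ± 1.10 and Ms4a6c at 4.68 ± 0.39. Looked at for that reason after its values were seen, the family had 7 tested members of 16 in the table; 6 were called higher and the 1 that did not pass was the B cell gene Ms4a1, at -1.35.

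Genes of patrolling, non-classical monocytes did not move one way. Among them, 5 of 15 tested members were called higher in M-MDSCs and 4 lower, with a median of 0.01. This split is near that of all tested genes, 26.2% higher and 28.9% lower. Cx3cr1, the fractalkine receptor, averaged 1699.7 ± 219 in M-MDSCs and 214 ± 160.0 in PMN-MDSCs, a difference of 3.22 ± 0.44, and its highest PMN-MDSC library was replicate 3. Emr4, an adhesion receptor, was higher by 2.46 ± 0.47, whereas Cd9, a tetraspanin, was lower at -4.52 ± 0.43 and Fcgr4, an Fc receptor, at -2.18 ± 0.48.

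Neutrophil genes marked the PMN-MDSC libraries. In the mature neutrophil list, 0 of 19 tested members were called higher in M-MDSCs and 19 lower, with a median of -6.05. Some of them, such as Stfa2l1 and Ceacam10 with a mean of 0 in M-MDSCs, passed the filter only through the PMN-MDSC libraries. Their direction was fixed by the filter, so the count of 19 is not independent of it. With TMM scaling, library-total scaling or quantile normalization 18 were lower, and without PMN-MDSC replicate 3, where 14 passed the filter, 13 were. The PMN-MDSC antigen gene Ly6g is not analysed here. Cxcr2, the receptor for CXCL1 and CXCL2 that releases neutrophils from the marrow, had 14.1, 5 and 2.83 in M-MDSCs, against 7140.5, 5282 and 4568 in PMN-MDSCs. The M-MDSC libraries were near 0 and the difference was -9.63 ± 0.49 (limma adjusted p = 9.01e-13). Csf3r, the G-CSF receptor, had 2884, 2599 and 3004 in M-MDSCs, against 102756, 97607 and 82656 in PMN-MDSCs, a difference of -5.06 ± 0.37, and it was among the 5 genes with the most counts in PMN-MDSCs. Mmp9, the gelatinase of tertiary granules, had 21.2, 15 and 12.3 in M-MDSCs, against 8957, 10991 and 8821 in PMN-MDSCs, a difference of -9.15 ± 0.47. Hdc, which makes histamine, had 37.7, 9.99 and 17 in M-MDSCs, against 11176, 9976 and 10651 in PMN-MDSCs, a difference of -9.07 ± 0.41. For both genes every M-MDSC library was near 0 beside every PMN-MDSC library.

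**Figure D2:**
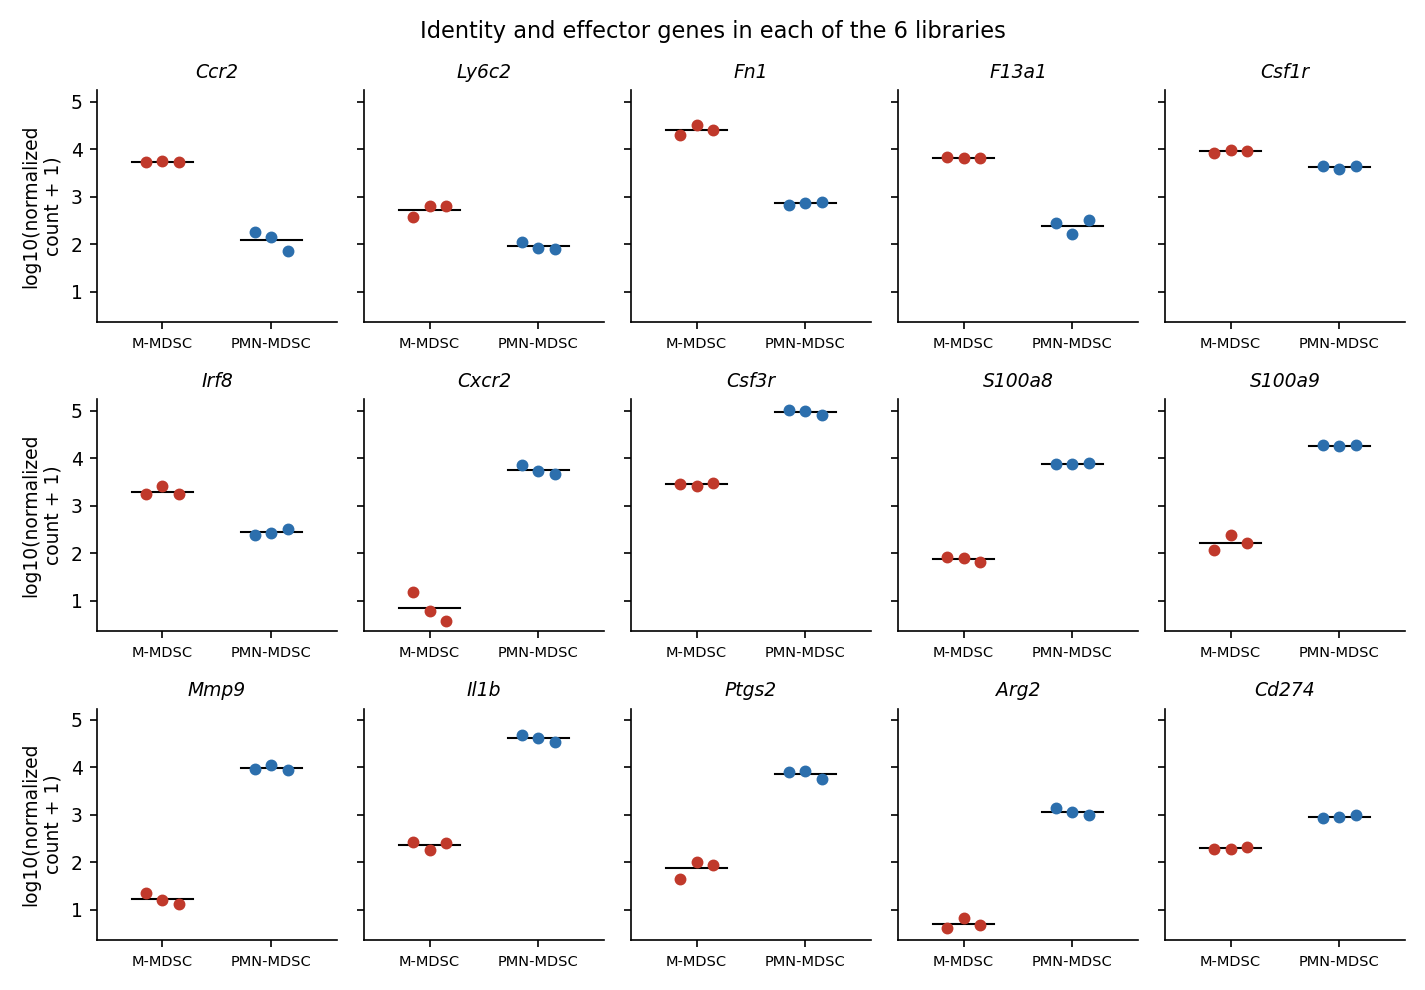
Points are single libraries and bars are group means on the log10(normalized count + 1) scale, for 15 genes of monocyte or neutrophil identity and of effector function. For none of them do the M-MDSC and PMN-MDSC libraries overlap, which also holds for 71.0% of all tested genes. Csf1r differs by 1.09 and Cxcr2 by -9.63 on the log2 scale.

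S100a8 and S100a9 encode the subunits of calprotectin, the main cytosolic protein of neutrophils, and lie next to each other on chromosome 3. S100a8 had 83.2, 78.3 and 64.2 in M-MDSCs, against 7555, 7513 and 7872 in PMN-MDSCs, a difference of -6.66 ± 0.57. S100a9 had 115, 239 and 167 in M-MDSCs, against 18896, 17688 and 18547 in PMN-MDSCs, a difference of -6.78 ± 0.60. Other members of the S100 family went the other way: S100a4 averaged 1196 ± 198 in M-MDSCs and 52.6 ± 11.8 in PMN-MDSCs, a difference of 4.49 ± 0.45, and S100a10, the partner of annexin A2, 731 ± 90 in M-MDSCs and 39.8 ± 15.9 in PMN-MDSCs, a difference of 4.23 ± 0.59. In all 4 of 8 tested members were called higher in M-MDSCs and 4 lower; S100a11 was lower at -2.55 ± 0.42, and S100a6 (-0.68 ± 0.22) lost its call and changed sign with library-total scaling (0.016) and after quantile normalization (0.0037), and lost it without PMN-MDSC replicate 1.

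The start regions of Ccr2, Cxcr2, S100a8 and S100a9 are shown because these are the chemokine receptor pair and the calprotectin pair described above. Each is 300 bases of GRCm38.p6 from RefSeq, 250 before and 50 after the start that the sequence table uses, read 5′ to 3′ on the gene's strand. Capitals mark matches on either strand to TTNNGNAA, a C/EBP-type motif, and GAGGAA, a PU.1-type motif, which do not overlap here.
Ccr2: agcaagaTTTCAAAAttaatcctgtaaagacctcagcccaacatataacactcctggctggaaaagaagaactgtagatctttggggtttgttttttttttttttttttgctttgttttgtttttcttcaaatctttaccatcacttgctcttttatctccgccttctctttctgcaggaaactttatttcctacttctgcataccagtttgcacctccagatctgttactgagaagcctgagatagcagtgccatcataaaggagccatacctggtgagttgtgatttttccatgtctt
Cxcr2: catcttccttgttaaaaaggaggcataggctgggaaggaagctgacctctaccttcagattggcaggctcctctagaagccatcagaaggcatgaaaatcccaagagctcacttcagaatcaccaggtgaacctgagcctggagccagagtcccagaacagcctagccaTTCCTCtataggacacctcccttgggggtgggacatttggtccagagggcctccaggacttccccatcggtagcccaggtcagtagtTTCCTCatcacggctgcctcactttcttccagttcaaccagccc
S100a8: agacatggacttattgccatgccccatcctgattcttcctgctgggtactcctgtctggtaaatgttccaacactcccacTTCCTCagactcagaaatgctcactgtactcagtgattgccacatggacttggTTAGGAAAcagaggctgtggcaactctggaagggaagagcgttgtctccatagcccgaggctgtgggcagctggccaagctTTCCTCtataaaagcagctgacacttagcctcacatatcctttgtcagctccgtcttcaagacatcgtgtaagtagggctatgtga
S100a9: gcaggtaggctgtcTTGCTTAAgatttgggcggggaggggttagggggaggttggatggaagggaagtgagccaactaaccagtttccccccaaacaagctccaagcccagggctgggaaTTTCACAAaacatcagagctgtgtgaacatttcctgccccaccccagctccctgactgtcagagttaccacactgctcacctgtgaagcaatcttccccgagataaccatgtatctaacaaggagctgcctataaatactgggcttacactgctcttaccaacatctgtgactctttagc
The window of Ccr2 is chr9:124101933-124102232 on the plus strand, that of Cxcr2 chr1:74153744-74154043 on the plus strand, that of S100a8 chr3:90668821-90669120 on the plus strand and that of S100a9 chr3:90695672-90695971 on the minus strand. Ccr2 held 1 C/EBP-type match and no PU.1-type match, Cxcr2 held 2 PU.1-type matches, S100a8 held 1 C/EBP-type and 2 PU.1-type matches, and S100a9 held 2 C/EBP-type matches. Such letters are common: 40.7% of 27025 RefSeq start regions of this length hold the C/EBP-type motif and 28.3% the PU.1-type motif. The matches are descriptions of these windows only. In the same annotation the genes span chr9:124101918-124109140 (Ccr2), chr1:74153994-74161246 (Cxcr2), chr3:90669071-90670034 (S100a8) and chr3:90692630-90695721 (S100a9). The start used for Ccr2 lies inside its annotated span, so the whole Ccr2 window lies within the gene, while the other windows begin before theirs.

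Secondary and tertiary granule genes were lower in M-MDSCs, and the primary granule list was divided. In the secondary and tertiary granule list, 0 of 16 tested members were called higher in M-MDSCs and 15 lower, with a median of -4.67. Some members, such as Olfm4 and Mmp25 with means of 1.31 and 6.31 in M-MDSCs, passed the filter only through the PMN-MDSC libraries. Their direction was fixed by the filter. Without PMN-MDSC replicate 3, where 12 members passed the filter, 11 were lower. Ltf, lactoferrin, had 281, 243 and 195 in M-MDSCs, against 5121, 8696 and 10005 in PMN-MDSCs, a difference of -5.00 ± 0.84, with PMN-MDSC replicate 1 below the others. Camp, cathelicidin, had 85.6, 129.9 and 92.5 in M-MDSCs, against 886, 1686 and 1537 in PMN-MDSCs, a difference of -3.69 ± 0.81, and PMN-MDSC replicate 1 was again lowest. Adam8 differed by -5.75 ± 0.25 and Padi4, which citrullinates histones, by -3.89 ± 0.22. Of 11 genes in the primary granule list, 4 were below the filter, among them Elane, neutrophil elastase. It had 57 reads in all in M-MDSCs and 2 in PMN-MDSCs, a ratio of 17.0 with a 95% counting interval of 4.50 to 143.9. Mpo, myeloperoxidase, had 21.2, 48.3 and 49.1 in M-MDSCs, against 7.34, 4.8 and 0 in PMN-MDSCs; its call as higher, at 3.38 ± 0.92, was lost with edgeR (adjusted p = 0.0792), as were those of Prtn3 (0.134) and Cst7 (0.118), which were also lost with DESeq2 and without PMN-MDSC replicate 3. Hp, haptoglobin, had 2369, 2398 and 2038 in M-MDSCs, against 5753, 4678 and 4490.0 in PMN-MDSCs, and was lower in M-MDSCs at -1.13 ± 0.27, as was Prss57 at -3.93, though neither was called lower with library-total scaling.

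The other largest falls were of varied function. Dhrs9, a retinol and steroid dehydrogenase, averaged 2.02 ± 0.702 in M-MDSCs and 2301 ± 383 in PMN-MDSCs, a difference of -9.58 ± 0.48. Nlrp12, an inhibitory NOD-like receptor, averaged 11.3 ± 4.33 in M-MDSCs and 6094 ± 538 in PMN-MDSCs, a difference of -9.03 ± 0.53. Steap4, a metalloreductase, had 0, 0 and 3.77 in M-MDSCs, against 979, 528 and 474 in PMN-MDSCs, with PMN-MDSC replicate 1 highest, and a difference of -8.54 ± 0.89. Sycp2, a component of the meiotic synaptonemal complex in germ cells, had 10.2, 8.33 and 0.944 in M-MDSCs, against 4800.3, 3098 and 3323 in PMN-MDSCs, and Amer2, an APC-binding protein, had 0, 0 and 0.944 in M-MDSCs, against 713, 734 and 903 in PMN-MDSCs. With 1 read in all M-MDSC libraries and 1610 in PMN-MDSC libraries, Amer2 was 2697-fold lower in M-MDSCs by reads, with a 95% counting interval of 483 to 106575. Ccdc146 had no read in M-MDSCs and 1212 in PMN-MDSCs, so it was at least 677-fold lower in M-MDSCs against a floor of 3 reads over the group. It encloses Fgl2, which averaged 914 in M-MDSCs and 9777 in PMN-MDSCs, and Rufy4 (-8.63 ± 0.87) overlaps Tns1, at 39.1 and 1522; no source used here gives the strand setting of the counting, so reads of overlapping genes cannot be told apart. H2-Q10, a class I MHC gene with near-identical neighbours, had the largest fall at -10.52 ± 0.82 and is uncertain for that reason.

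Transcription factors of the 2 fates differed in the direction of their known roles for some members and not for others. In the list, 14 of 25 tested members were called higher in M-MDSCs and 6 lower. Irf8, the factor that commits progenitors to the monocyte fate, had 1724, 2592 and 1751 in M-MDSCs, against 242, 263 and 318 in PMN-MDSCs, a difference of 2.86 ± 0.40. Klf4, which acts downstream of it, averaged 2138 ± 189.5 in M-MDSCs and 314 ± 100.2 in PMN-MDSCs, a difference of 2.82 ± 0.33. Irf5, an interferon regulatory factor of myeloid cells, differed by 1.74 ± 0.22. On the granulocyte side Cebpe, the late granulocyte factor, had 1.57, 16.7 and 5.66 in M-MDSCs, against 35.5, 75.6 and 52.2 in PMN-MDSCs, a difference of -2.98 ± 0.88 that was lost with library-total scaling and without M-MDSC replicate 1. Gfi1 averaged 31.9 ± 14.5 in M-MDSCs and 40.7 ± 5.1 in PMN-MDSCs and did not pass the test (-0.42 ± 0.51, adjusted p = 0.497). Within the C/EBP family Cebpa was higher in M-MDSCs by 1.16 ± 0.21 and Cebpd lower, at -2.33 ± 0.20. Cebpb, at -0.87 ± 0.28, was called lower with the authors' size factors and changed sign after quantile normalization (0.16). Sfpi1, the gene of PU.1, was lower at -1.01 ± 0.21 and lost the call with library-total scaling and after quantile normalization. Egr1 had 139, 179.8 and 167 in M-MDSCs, against 4909, 8439 and 4385 in PMN-MDSCs, a difference of -5.13 ± 0.50.

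Growth factor and cytokine receptors were divided: 5 of 21 tested members were called higher in M-MDSCs and 11 lower, and the balance turned to 8 higher and 5 lower both with library-total scaling and after quantile normalization. Il6st, the signalling subunit gp130 of the IL-6 receptor, had 1680.1, 1502 and 1674 in M-MDSCs, against 215, 162 and 233 in PMN-MDSCs, a difference of 3.00 ± 0.30. Its partner Il6ra, which binds IL-6 itself, averaged 2917 ± 109 in M-MDSCs and 2570.0 ± 379.5 in PMN-MDSCs and was not called (0.19 ± 0.22), though it was called higher with library-total scaling (0.88) and after quantile normalization (1.04). Stat3, the transcription factor that this receptor activates, averaged 2639 ± 56.5 in M-MDSCs and 6438 ± 469.8 in PMN-MDSCs, a difference of -1.28 ± 0.18 that lost its call after quantile normalization. In the whole IL-6 and STAT3 list 2 of 18 tested members were called higher in M-MDSCs and 13 lower, and 5 were higher and 9 lower both with library-total scaling and after quantile normalization. Socs3, the feedback inhibitor, was at -2.60 and the kinase Jak1 at -1.39. The 2 tumour necrosis factor receptors were opposed, Tnfrsf1b being higher by 1.37 ± 0.34 and Tnfrsf1a lower, at -1.70 ± 0.21.

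Receptors for chemoattractants set the cell types apart beyond Ccr2 and Cxcr2. In this list 3 of 18 tested members were called higher in M-MDSCs and 11 lower, with a median of -2.74. Some members, such as Cxcr1 and Ccr3 with means of 0 and 0.28 in M-MDSCs, passed the filter only through PMN-MDSCs, which fixed their direction. Without PMN-MDSC replicate 3, where 15 members passed the filter, 2 were higher and 8 lower. C5ar1, the complement C5a receptor, had 32.2, 104 and 57.6 in M-MDSCs, against 3277, 3158 and 2261 in PMN-MDSCs, a difference of -5.60 ± 0.32. Cxcr4, which retains cells in the bone marrow, had 235, 286 and 309 in M-MDSCs, against 3428, 3211 and 2888 in PMN-MDSCs, a difference of -3.52 ± 0.20. The formyl peptide receptors Fpr1 and Fpr2 were at -6.05 and -3.07, Ccr1 at -4.99 and Cxcr1 at -5.27. Among chemokines and cytokines 3 of 17 tested members were called higher in M-MDSCs and 9 lower, and 5 were higher and 6 lower with library-total scaling. Ccl9 averaged 789.8 ± 212 in M-MDSCs and 37.7 ± 14 in PMN-MDSCs, a difference of 4.37 ± 0.42, while Vegfa, the vascular growth factor, averaged 55.6 ± 21.1 in M-MDSCs and 1242 ± 213 in PMN-MDSCs, a difference of -4.50 ± 0.38. Osm, oncostatin M, differed by -3.58 ± 0.28 and Tnfsf14, the ligand LIGHT, by -3.53 ± 0.25, both lower in M-MDSCs.

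**Figure D3:**
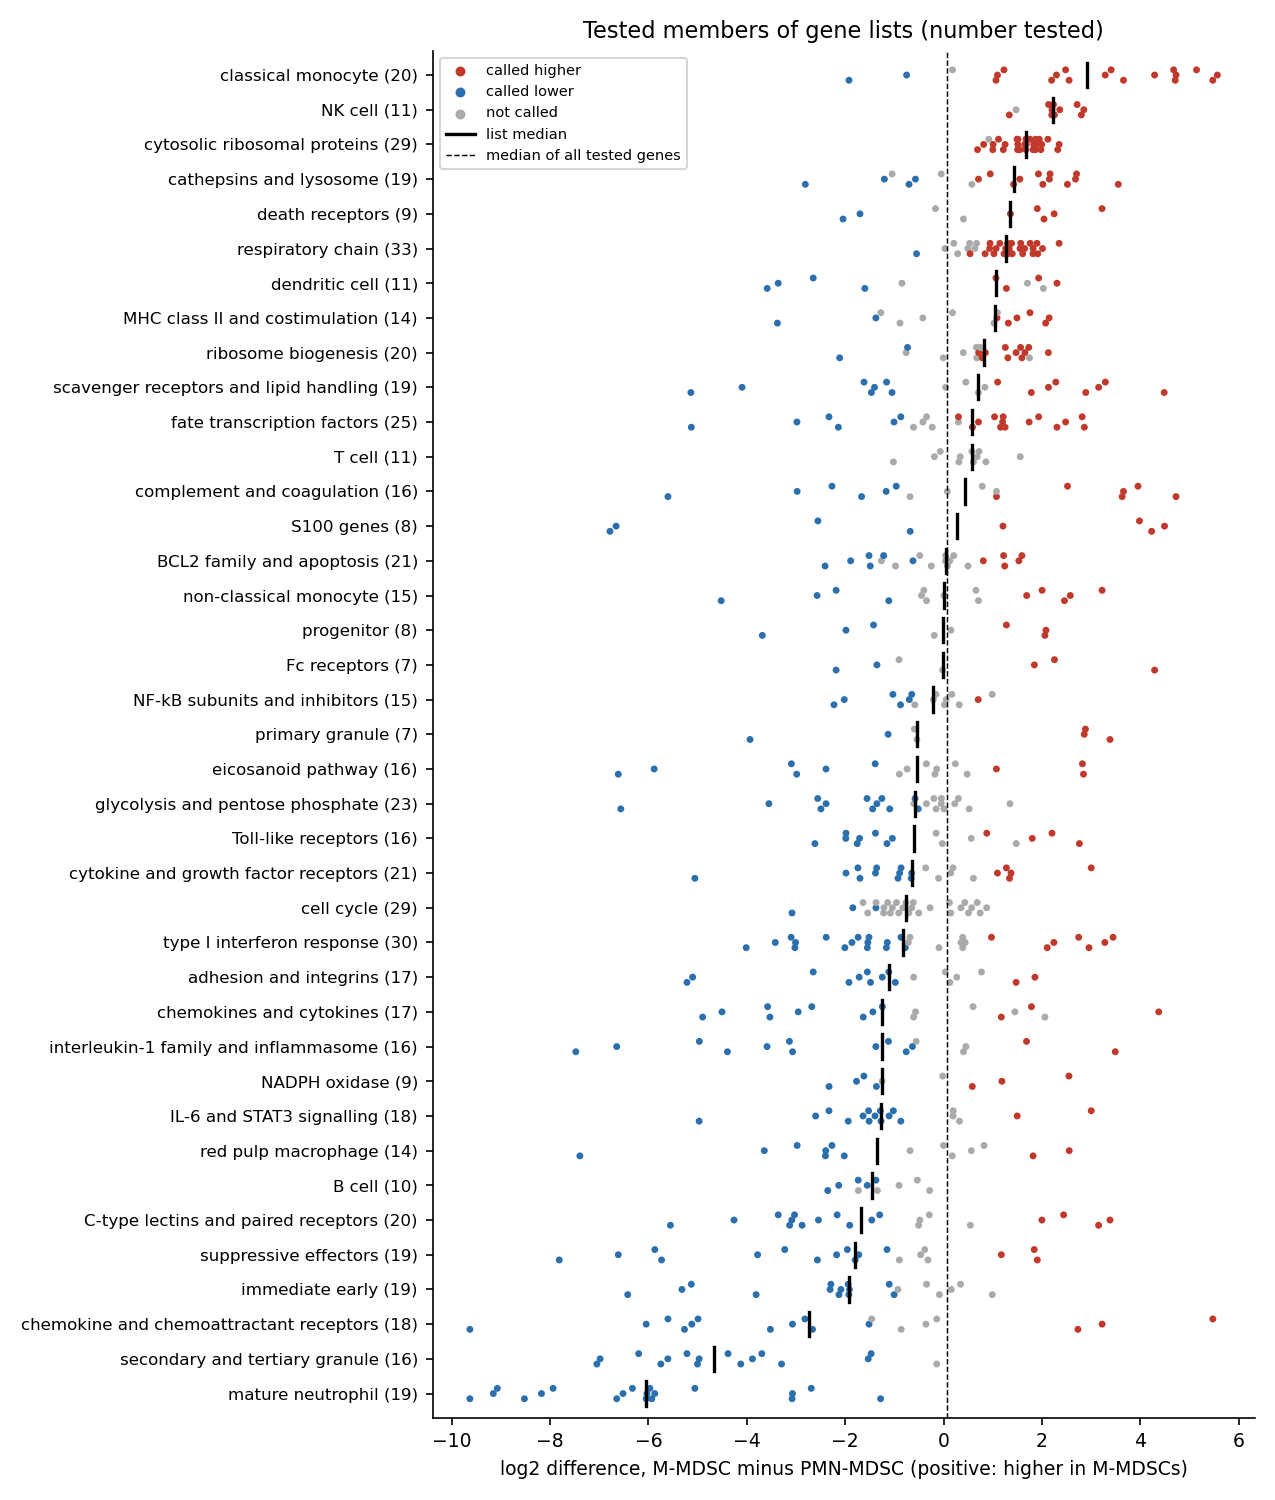
Each row is a gene list with 7 or more tested members, each point a tested member placed at its log2 difference, M-MDSC minus PMN-MDSC, and each bar the list median; the dashed line is the median of all 11505 genes. Medians run from -6.05 for mature neutrophil genes to 2.92 for classical monocyte genes.

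Of the enzymes and ligands through which MDSCs are known to restrain T cells, most that were measured were lower in M-MDSCs. In the suppressive effector list 3 of 19 tested members were called higher in M-MDSCs and 12 lower, with a median of -1.80. Some members, such as Slc27a2 and Arg2, passed the filter only through PMN-MDSCs, which fixed their direction. Without PMN-MDSC replicate 3, where 17 members passed the filter, 2 were higher and 9 lower. The enzymes usually named for M-MDSCs were barely read in either cell type. Arg1, arginase 1, had 3 reads in all in M-MDSCs and 12 in PMN-MDSCs, and Nos2, inducible nitric oxide synthase, had 0, 4.16 and 0 in M-MDSCs, against 1.22, 7.2 and 15.2 in PMN-MDSCs. Arg2, the mitochondrial arginase, had 3.14, 5.83 and 3.77 in M-MDSCs, against 1366, 1138 and 984 in PMN-MDSCs, a difference of -7.81 ± 0.47. Cd274, the checkpoint ligand PD-L1, had 189, 192 and 213 in M-MDSCs, against 832, 901 and 964 in PMN-MDSCs, a difference of -2.17 ± 0.48; its gene overlaps Plgrkt, at 80.0 and 203. Entpd1 (CD39), which degrades extracellular ATP, differed by -3.78 ± 0.24, and Slc7a11, the cystine importer, by -5.73 ± 0.38. Slc27a2, a fatty acid transporter, was at -5.87 and Nt5e (CD73) at -3.23. Higher in M-MDSCs were Tgfb1, averaging 2494 ± 187 in M-MDSCs and 1105 ± 70.7 in PMN-MDSCs (1.17 ± 0.19), Havcr2 (TIM-3, 1.84 ± 0.52) and Fasl (1.90 ± 0.73); Fasl is also a gene of cytotoxic lymphocytes, whose markers are given with those of NK cells. The Fasl call was lost with a pseudocount of 0.5, with no filter, without M-MDSC replicate 1 or 3 and without PMN-MDSC replicate 2 or 3.

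Eicosanoid genes were divided, and most interleukin-1 and inflammasome genes were lower in M-MDSCs. Ptgs2, cyclooxygenase 2, which opens prostaglandin synthesis, had 43.2, 102 and 88.7 in M-MDSCs, against 8089, 8302 and 5665 in PMN-MDSCs, a difference of -6.61 ± 0.54. Alox5, 5-lipoxygenase, which opens leukotriene synthesis, had 52.6, 51.6 and 76.4 in M-MDSCs, against 3642, 3572 and 3449.6 in PMN-MDSCs, a difference of -5.88 ± 0.29. Its activating protein Alox5ap averaged 1521 ± 251 in M-MDSCs and 1926 ± 144 in PMN-MDSCs and was not called (-0.35 ± 0.23, adjusted p = 0.193). Hpgd, which inactivates prostaglandins, and Cysltr1, a leukotriene receptor, were higher in M-MDSCs by 2.82 ± 0.58 and 2.84 ± 0.76. Over the pathway 3 of 16 tested members were called higher in M-MDSCs and 6 lower, beside 26.2% higher and 28.9% lower of all tested genes. The split turned to 6 higher and 5 lower with library totals that leave out Rn45s and Malat1. Il1b, the inflammatory cytokine interleukin-1 beta, had 259.9, 178 and 248 in M-MDSCs, against 47049, 40840.2 and 34181 in PMN-MDSCs, a difference of -7.48 ± 0.68. Il1r2, its decoy receptor, had 30.6, 17.5 and 44.3 in M-MDSCs, against 3636, 2999 and 2431 in PMN-MDSCs, a difference of -6.64 ± 0.31, and Il1f9 (interleukin-36 gamma) had 9.42, 0 and 5.66 in M-MDSCs, against 2189.7, 1752 and 1739 in PMN-MDSCs, a difference of -8.84 ± 0.62. In the interleukin-1 and inflammasome list 2 of 16 tested members were called higher in M-MDSCs and 11 lower. Of the lower ones, Il1rl1, with a mean of 1.47 in M-MDSCs, passed the filter only through PMN-MDSCs. Without PMN-MDSC replicate 3, where 15 members passed the filter, 2 were higher and 10 lower. The adaptor Pycard (3.49 ± 0.50) and the sensor Nlrc4 (1.69 ± 0.57) were the ones higher, while the sensor Nlrp3 was at -3.59; the Nlrc4 call was lost after quantile normalization and without PMN-MDSC replicate 1.

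The NADPH oxidase that makes superoxide was split by subunit. Cybb, the catalytic membrane subunit, had 9423, 10938 and 9693 in M-MDSCs, against 1536, 1775 and 1826 in PMN-MDSCs, a difference of 2.55 ± 0.57. Cyba, its membrane partner, was at -0.02 and was not called. Cytosolic subunits were lower in M-MDSCs: Ncf1 had 1353, 1995 and 1691 in M-MDSCs, against 7403, 9118 and 8584 in PMN-MDSCs, a difference of -2.33 ± 0.30, and Ncf4 differed by -1.37 ± 0.22. Over the list 3 of 9 tested members were called higher in M-MDSCs and 4 lower, beside 26.2% higher and 28.9% lower of all tested genes.

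Antigen presentation, pattern recognition and Fc receptor genes also divided within their families. Cd74, the class II invariant chain, averaged 5187 ± 706 in M-MDSCs and 1841 ± 203 in PMN-MDSCs (1.49 ± 0.45), and H2-DMa, which loads peptides, averaged 299 ± 49 in M-MDSCs and 67.4 ± 14.9 in PMN-MDSCs (2.14 ± 0.36). H2-Aa, a class II chain, was higher by 1.09 ± 0.41, a call lost without PMN-MDSC replicate 3 (0.89), without M-MDSC replicate 1 (1.06) and without M-MDSC replicate 3 (1.02). The costimulatory ligands were opposed, Cd40 and Cd86 being at 2.07 and 1.32 and Cd80 at -3.38; in all 6 of 14 tested members were called higher in M-MDSCs and 2 lower. Among Toll-like receptors and their adaptors 4 of 16 tested members were called higher in M-MDSCs and 8 lower, beside 26.2% higher and 28.9% lower of all tested genes. With library-total scaling 6 were higher and 5 lower. The endosomal receptors Tlr7 and Tlr9 were higher by 2.20 ± 0.38 and 2.76 ± 0.47, and the surface receptors Tlr4 and Tlr5 lower, at -1.99 ± 0.23 and -2.62 ± 0.34. The high-affinity IgG receptor Fcgr1 (CD64) had 451, 550.4 and 439.7 in M-MDSCs, against 12.2, 22.8 and 45.7 in PMN-MDSCs, a difference of 4.29 ± 0.50, and the inhibitory Fcgr2b was higher by 2.25 ± 0.36, whereas Fcgr3 was lower, at -1.35 ± 0.27. Of C-type lectins and paired receptors 4 of 20 tested members were called higher in M-MDSCs and 12 lower; Clec4d averaged 56.3 ± 7.13 in M-MDSCs and 2711 ± 545 in PMN-MDSCs, Cd300lf 449 ± 54.4 in M-MDSCs and 8611 ± 875 in PMN-MDSCs, and the macrophage lectin Clec10a 135 ± 15 in M-MDSCs and 15 ± 6.13 in PMN-MDSCs.

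Type I interferon response genes showed both directions at large size. In the list 7 of 30 tested members were called higher in M-MDSCs and 16 lower, and with library-total scaling 11 were higher and 10 lower. Rsad2, the antiviral protein viperin, had 174, 269.8 and 174 in M-MDSCs, against 3753, 3284 and 2825 in PMN-MDSCs, a difference of -4.01 ± 0.49. Ifit1, Ifit3, Oasl1 and Oasl2 were at -3.42, -3.10, -3.02 and -3.01. Against these, Mx1, an antiviral GTPase, had 1477, 1295 and 1322 in M-MDSCs, against 176, 110.4 and 274 in PMN-MDSCs, a difference of 2.96 ± 0.46. Mx2 was at 3.28, and the pyrin-HIN genes Ifi203 and Mnda, which have close relatives in the genome, differed by 2.75 ± 0.24 and 3.45 ± 0.65.

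Protein synthesis and respiration genes were higher in M-MDSCs. Of the cytosolic ribosomal protein genes 28 of 29 tested members were called higher in M-MDSCs and 0 lower, with a median of 1.67, and the count was 28 or 29 higher under each scaling; these genes have many processed copies in the genome. Rpl32 averaged 800.0 ± 49.9 in M-MDSCs and 156 ± 11.6 in PMN-MDSCs, a difference of 2.35 ± 0.22, and Rps24 had 2336, 2378 and 2344 in M-MDSCs, against 869, 725 and 890.2 in PMN-MDSCs, a difference of 1.51 ± 0.15. The spread within each cell type was small beside the gap. Of nuclear-encoded respiratory chain subunits 25 of 33 tested members were called higher in M-MDSCs and 1 lower, with a median of 1.26. Atp5a1, of the ATP synthase, averaged 2833 ± 299 in M-MDSCs and 1129.7 ± 190.2 in PMN-MDSCs (1.33 ± 0.17) and Cox4i1, of cytochrome oxidase, 746 ± 54.4 in M-MDSCs and 321 ± 55.4 in PMN-MDSCs (1.23 ± 0.20). The exception was Ndufs1, of complex I, at -0.55 ± 0.16, which changed sign with library-total scaling (0.14). In ribosome biogenesis 11 of 20 tested members were called higher in M-MDSCs and 2 lower, Npm1 being higher by 1.59 ± 0.30 and Polr1a, the large subunit of RNA polymerase I, lower, at -2.11 ± 0.14.

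Several glucose-handling genes were lower in M-MDSCs. Of glycolysis and pentose phosphate genes 0 of 23 tested members were called higher in M-MDSCs and 12 lower; with library-total scaling 4 were higher and 9 lower. Slc2a3, the high-affinity glucose transporter GLUT3, had 73.8, 66.6 and 72.7 in M-MDSCs, against 7284, 7474 and 5765 in PMN-MDSCs, a difference of -6.56 ± 0.27. Hk3, the myeloid hexokinase, had 769, 923 and 844 in M-MDSCs, against 8394, 9788 and 11757 in PMN-MDSCs, a difference of -3.55 ± 0.27. Pfkfb4, which sets the level of the activator of phosphofructokinase, differed by -2.56 ± 0.17. Pkm, pyruvate kinase, averaged 5679 in M-MDSCs and 14552 in PMN-MDSCs and was lower at -1.36. Gapdh at -0.20, Pgk1 at 0.23 and Ldha at 0.01 did not pass the test. Few cell cycle genes were called: 0 of 29 tested members were called higher in M-MDSCs and 3 lower, turning to 4 higher and 1 lower with library-total scaling. Aurka was at -3.08 ± 0.50, Mki67 averaging 468 ± 12.4 in M-MDSCs and 665 ± 22.1 in PMN-MDSCs (-0.51 ± 0.79, adjusted p = 0.608). When the 6 libraries were fitted alone Mki67 was called lower, at the same difference.

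Lysosomal genes were mainly higher in M-MDSCs, and lipid handling genes were divided. In the cathepsin and lysosome list 12 of 19 tested members were called higher in M-MDSCs and 4 lower, with a median of 1.42. Ctsc, cathepsin C, averaged 1884 ± 107 in M-MDSCs and 168 ± 69.7 in PMN-MDSCs (3.55 ± 0.28), and Psap, which gives rise to the saposins, 24731 ± 3791 in M-MDSCs and 6454 ± 167 in PMN-MDSCs (1.93 ± 0.20). Ctsd, cathepsin D, ran the other way at 782 ± 127 in M-MDSCs and 5482 ± 809 in PMN-MDSCs (-2.81 ± 0.22). Lrp1, the endocytic receptor for lipoproteins and protease complexes, had 26801, 27625 and 25146 in M-MDSCs, against 2565, 2120.2 and 3669 in PMN-MDSCs, a difference of 3.29 ± 0.36, and was among the 5 genes with the most counts in M-MDSCs. The scavenger receptors Scarb1 and Msr1 were at 3.15 and 4.48. Lower in M-MDSCs were Dgat1, which makes triglyceride (-4.10 ± 0.35), and the cholesterol exporter Abcg1 (-1.47 ± 0.23); in all 8 of 19 tested members were called higher in M-MDSCs and 7 lower. Among complement and coagulation genes 6 of 16 tested members were called higher in M-MDSCs and 6 lower. For these lists the shares of all tested genes were 26.2% higher and 28.9% lower. Cfp, properdin, averaged 239 ± 55.9 in M-MDSCs and 748 ± 22 in PMN-MDSCs (-1.67 ± 0.22).

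Adhesion, survival and early response genes completed the contrast. Itgam (CD11b), shared by both cell types, had 6092, 8036 and 6479.6 in M-MDSCs, against 21434, 22062 and 23777 in PMN-MDSCs, a difference of -1.72 ± 0.18; the beta 1 integrin Itgb1 was higher in M-MDSCs by 1.86 ± 0.24. Of adhesion genes 2 of 17 tested members were called higher in M-MDSCs and 10 lower, and 6 higher and 7 lower with library-total scaling. Mcl1, the survival protein on which neutrophils depend, had 7472, 7241 and 7217 in M-MDSCs, against 28437, 27254 and 25614 in PMN-MDSCs, a difference of -1.89 ± 0.31, while Bcl2 had 332, 369.7 and 316 in M-MDSCs, against 109, 188 and 148 in PMN-MDSCs, a difference of 1.22 ± 0.29. Bax was higher by 1.53 ± 0.26 and Bcl2l1 (BCL-XL) lower, at -1.52 ± 0.19; of the 3 tested Bcl2a1 copies, which are near-identical, only Bcl2a1b was called (-2.41 ± 0.57). Across the BCL2 list 5 of 21 tested members were called higher in M-MDSCs and 6 lower, near the shares of all tested genes (26.2% higher, 28.9% lower). The split turned to 11 higher and 4 lower with library-total scaling and 7 and 5 after quantile normalization. Of immediate early genes 0 of 19 tested members were called higher in M-MDSCs and 13 lower; Egr3 averaged 13 ± 4.5 in M-MDSCs and 1200.1 ± 405 in PMN-MDSCs (-6.42 ± 0.71) and Ier3 23 ± 1.35 in M-MDSCs and 338 ± 53.1 in PMN-MDSCs (-3.81 ± 0.42). Such genes respond to tissue handling, and whether handling had a part was not tested. Of NF-kB genes 1 of 15 tested members were called higher in M-MDSCs and 6 lower, and 5 higher and 2 lower with library-total scaling; Nfkb1 was higher by 0.70 ± 0.15 and the inhibitor Nfkbiz lower, at -2.02 ± 0.29.

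Markers of other cell types were measured beside these differences. NK cell genes moved with the M-MDSC libraries: 10 of 11 tested members were called higher in M-MDSCs and 0 lower, and the 11 genes summed to 2223 to 2654 in the M-MDSC libraries and 462 to 579.8 in the PMN-MDSC libraries. Gzma, granzyme A, had 535, 588 and 468 in M-MDSCs, against 74.6, 86.4 and 78.4 in PMN-MDSCs, and Ncr1, the NK receptor NKp46, had 351, 378 and 327 in M-MDSCs, against 95.4, 49.2 and 91.4 in PMN-MDSCs. Ccl5 (1.79 ± 0.67) and Fasl are also made by NK cells, and the Ccl5 call was lost after quantile normalization, without M-MDSC replicate 2 or 3 and without PMN-MDSC replicate 1 or 2. B cell genes moved with the PMN-MDSC libraries: 0 of 10 tested members were called higher in M-MDSCs and 5 lower, and the 10 genes summed to 636 to 721 in the M-MDSC libraries and 1837 to 2247 in the PMN-MDSC libraries. With library-total scaling 2 were lower, and without PMN-MDSC replicate 3 there were 4. No T cell gene of 11 tested was called; the 13 genes summed to 456 to 766 in the M-MDSC libraries and 329 to 634 in the PMN-MDSC libraries, while 2 were called higher with library-total scaling and 1 lower without PMN-MDSC replicate 3. Of red pulp macrophage genes 2 of 14 tested members were called higher in M-MDSCs and 7 lower, with Slc40a1, the iron exporter ferroportin, at -7.39 ± 0.36, and without PMN-MDSC replicate 3 only 3 of the 10 still tested were lower. Eosinophil, basophil and mast cell genes summed to 2.36 to 17.5 in the M-MDSC libraries and 78.4 to 94.2 in the PMN-MDSC libraries, with Fcer1a at 0 in all 6 libraries, erythroid genes to 5.83 to 16.5 in the M-MDSC libraries and 44.4 to 124 in the PMN-MDSC libraries, with the 4 globin genes at 0, and platelet genes to 31.1 to 37.5 in the M-MDSC libraries and 176 to 255 in the PMN-MDSC libraries, with Gp9 at 0. Against these, the classical monocyte genes summed to 83899 to 109751 in the M-MDSC libraries and 22067 to 24368 in the PMN-MDSC libraries. The globin genes come as near-identical pairs, and whether their reads could be assigned was not tested. Their values of 0 therefore need not mean that their RNA was absent. Of dendritic cell genes 4 of 11 tested members were called higher in M-MDSCs and 4 lower, and of plasma cell genes 3 of 6 were called higher and 0 lower. Of progenitor genes 3 of 8 tested members were called higher in M-MDSCs and 3 lower, and of death receptor genes 5 of 9 were called higher and 2 lower. The shares of all tested genes were 26.2% higher and 28.9% lower. The part of other cells in the differences was not tested.

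The 5 genes with the most counts were partly shared. Rn45s and Malat1 led in both cell types, and counts also depend on transcript length. In M-MDSCs they were followed by Ahnak, a large scaffold protein, at 48742 ± 2139 in M-MDSCs and 3810.1 ± 781 in PMN-MDSCs, by Actb and by Lrp1. In PMN-MDSCs they were followed by Csf3r, by Slfn4, an interferon-inducible Schlafen gene, at 1075 ± 165 in M-MDSCs and 85657 ± 2080.2 in PMN-MDSCs, and by Myh9, non-muscle myosin, at 23381 ± 2241 in M-MDSCs and 64358 ± 8994 in PMN-MDSCs. Malat1 had 200979.9, 160290.0 and 187505 in M-MDSCs, against 718796, 666244 and 574435 in PMN-MDSCs, a difference of -1.84 ± 0.52 that lost its call after quantile normalization. The median gene span was 21553 bases for genes called higher in M-MDSCs and 30362 for genes called lower, beside 23222 for all tested genes, given with no test.

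The same contrast was recomputed in the untreated libraries with the KO label, which share no library with the WT-labelled ones. Of the 6337 genes called in the WT-labelled libraries, 98.9% had the same sign there, and 75.8% were also called the same way; these made up 85.6% of the 5607 KO-labelled calls (48.7% of the genes tested). Ccr2 was at 5.46 in the KO-labelled libraries, beside 5.47 in the WT-labelled ones, Cxcr2 at -9.53 beside -9.63 and S100a9 at -6.11 beside -6.78. A test of the difference between both contrasts called 2 genes, 0.0174% of those tested, while 491 had an unadjusted p below 0.05. Tbc1d10c, a Ras and calcineurin inhibitor of lymphocytes, differed by -4.22 ± 0.23 in WT-labelled and by -2.15 in KO-labelled libraries. It had 201, 165 and 169.8 in M-MDSCs, against 3298, 3439 and 3267 in PMN-MDSCs with the WT label, and 478, 480.2 and 545 in M-MDSCs against 2824, 2092 and 1871 in PMN-MDSCs with the KO label. Satb1, a chromatin organizer, differed by -2.28 ± 0.15 with the WT label and by -1.01 with the KO label. Neither call held in every leave-out: no gene was called without WT-labelled M-MDSC replicate 2 or 3, without WT-labelled PMN-MDSC replicate 1 or 3, without any 1 of the KO-labelled M-MDSC replicates, or without KO-labelled PMN-MDSC replicate 2 or 3.

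Setting the untreated contrast against the same contrast in lymphodepleted WT-labelled mice, whose libraries were normalized in the same table, called 111 genes, 0.965% of those tested. The difference was higher in untreated mice for 28 and lower for 83. This split depended on the scaling and the filter. It was 42 higher and 65 lower with TMM scaling and 32 and 34 with library-total scaling. Leaving Rn45s and Malat1 out of the total gave 53 and 45, and using no filter gave 25 and 132. Among the 83 lower ones, the largest were genes nearly absent from untreated M-MDSCs. Of them, Cxadr, Siglec5, Slco4a1 and Tmem40 reached 10 counts in none of the untreated M-MDSC libraries. They passed the filter only through untreated PMN-MDSCs, which favoured a difference in this direction. Genes low in both untreated cell types were not tested, whatever their level after lymphodepletion. Mgam, maltase-glucoamylase, had 11.8, 1.67 and 6.61 in M-MDSCs, against 2295, 1703 and 1752 in PMN-MDSCs in untreated mice, and 146, 101 and 135 in M-MDSCs against 1843, 1607 and 1852 in PMN-MDSCs in lymphodepleted mice. Its PMN-MDSC levels overlapped between treatments and its M-MDSC levels did not, and the contrasts differed by -4.43 ± 0.80. Slco4a1, an organic anion transporter, had 4.71, 2.5 and 3.77 in M-MDSCs, against 554, 673 and 514 in PMN-MDSCs in untreated mice, and 60.5, 42.6 and 92.2 in M-MDSCs against 411, 399 and 217 in PMN-MDSCs in lymphodepleted mice, a difference of -4.59 ± 0.68. Cxadr, Siglec5, a symbol used for more than a single sialic acid-binding lectin, and Tmem40 were the others, at -5.29, -4.93 and -4.40.

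The largest higher ones were genes that PMN-MDSCs held more of after lymphodepletion or M-MDSCs less of. Il18r1, a chain of the interleukin-18 receptor, had 261, 276 and 236 in M-MDSCs, against 387, 419 and 394 in PMN-MDSCs in untreated mice, and 82.1, 62.7 and 47.4 in M-MDSCs against 619.6, 534 and 567 in PMN-MDSCs in lymphodepleted mice. The contrasts differed by 2.54 ± 0.27, with the groups apart in both. Mcam (CD146), an adhesion molecule, had 27.5, 34.1 and 25.5 in M-MDSCs, against 72.2, 18 and 37 in PMN-MDSCs in untreated mice, where they overlapped, and 1.11, 0.774 and 0 in M-MDSCs against 103, 199 and 158 in PMN-MDSCs in lymphodepleted mice, a difference of 6.25 ± 0.77. Ptgir, the prostacyclin receptor, was higher in M-MDSCs of untreated mice at 3.03 ± 0.51, and was at -0.25 in lymphodepleted mice. Acvrl1 and Cd55, a complement regulator, were the others, at 3.28 and 3.13. The calls for Ptgir and Cd55 were lost without any 1 of the 6 untreated libraries, and that for Acvrl1 without untreated M-MDSC replicate 1 or untreated PMN-MDSC replicate 1 or 2. Among lymphodepleted libraries, leaving out M-MDSC replicate 3 lost all 3 of these calls, leaving out M-MDSC replicate 2 or PMN-MDSC replicate 3 lost that for Ptgir, and leaving out M-MDSC replicate 1 lost that for Siglec5. The count of 111 moved by more than 1.5 times when single libraries were left out: it was 47, 51 and 48 without untreated M-MDSC replicate 1, 2 and 3, 32, 27 and 68 without untreated PMN-MDSC replicate 1, 2 and 3, 47 and 35 without lymphodepleted M-MDSC replicate 1 and 3, and 306 and 221 without lymphodepleted PMN-MDSC replicate 1 and 2.

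**Figure D4:**
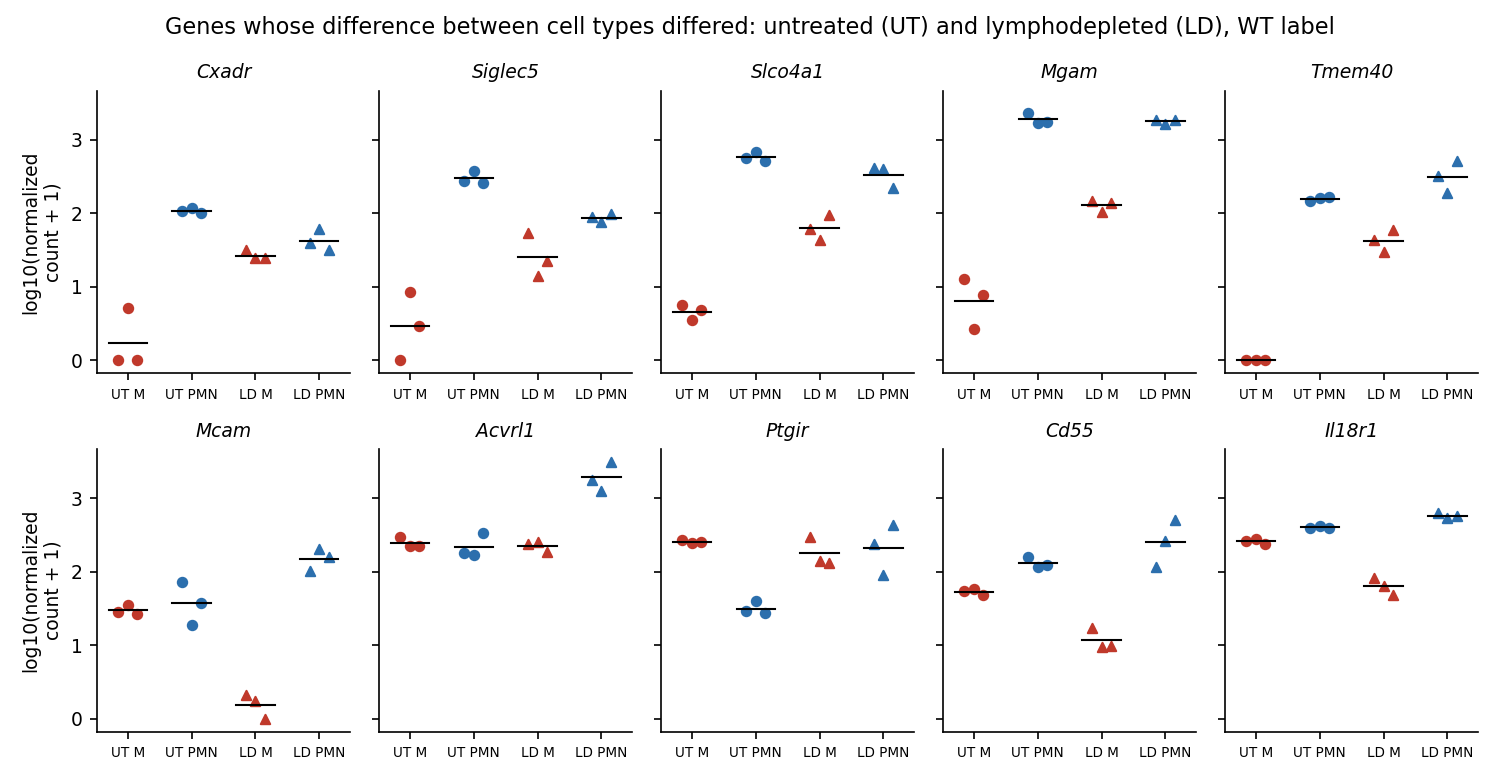
Points are single libraries on the log10(normalized count + 1) scale and bars are group means; M and PMN stand for the cell types, circles for untreated (UT) and triangles for lymphodepleted (LD) mice. Tmem40 is at 0 in the 3 untreated M-MDSC libraries, and Mcam is below 2 normalized counts in the 3 lymphodepleted M-MDSC libraries.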

How the data were processed

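The values are normalized read counts per gene. Per the submitters' processing notes, the tools named for the series are STAR 2.5.3a, HTSeq 0.6.1 and DESeq2, with the build mm10; no source used here states their settings, such as strand. The signal deposited by the authors is gene counts divided by a size factor per library. In all 24 libraries, 100% of values came out as whole reads within 0.001 when divided by what 1 read is worth; the recovered totals give the depth. No column was left unused (0).

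The main fit was limma 3.58.1 (R 4.3.3) with an intensity trend on log2(normalized count + 1), 1 mean for each of the 8 groups of 3 over all 24 libraries, which share an estimate of spread. A fold change is on that scale and understates the change of low genes. Genes needed 10 or more in at least 3 of the 6 libraries; p-values were adjusted over 11505 genes by Benjamini-Hochberg and called below 0.05. Differences between contrasts were tested as interactions in the same fit. edgeR 4.0.16 and DESeq2 1.42.0 were run on the reads of 22 libraries, without 2 KO-labelled PMN-MDSC libraries in which 1 read is worth close to 1 normalized count. On simulated counts for the M-MDSC against PMN-MDSC comparison, with 200 of 11505 genes changed, the fit recovered 41% of those changed by 1 and 75% of those changed by 2 on the log2 scale, and called 0.0442% of unchanged genes. In the data 55.1% of the tested genes were called, and the adjustment is stricter when few genes change. These rates therefore do not give the share recovered in the real comparison. Replicate numbers were not taken as pairs. The p-values treat libraries as independent although the design gives 3 mice for both cell types.

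Genes were named by rule: 41 chosen genes where they bear on a result; the 12 largest rises and falls among called genes with a mean of 100 or more and no overlap; up to 3 called members per list and direction; 5 per direction for each interaction; the 5 genes of highest level per cell type; and close family members. Of the 713 listed genes in 43 lists, 709 were in the table, 11 under an older symbol found in RefSeq. Some listed genes are not reported here. Genes listed without a standard error came from these lists and were chosen for their role after values were seen. The members and lists were chosen with earlier results of these data known. RefSeq annotation of GRCm38.p6 matched 21688 symbols directly and 1623 by synonym. Counting intervals (95%, exact) and the floor of 3 reads cover counting error only. pandas 2.3.3 and scipy 1.17.1 were used.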

Additional observations from a re-analysis of the deposited data

Results flagged for a closer look

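The 12 genes below were singled out because the M-MDSC minus PMN-MDSC difference itself differed between untreated WT-labelled libraries and a second set, by an interaction in the limma fit.

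Between the WT-labelled and KO-labelled untreated libraries these were Tbc1d10c, by -2.07 ± 0.32 (adjusted p = 0.0223), and Satb1, by -1.27 ± 0.21 (adjusted p = 0.0223). All 3 KO-labelled M-MDSC libraries were above all 3 WT-labelled ones for both genes.

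Between untreated and lymphodepleted WT-labelled libraries the untreated contrast was lower for Cxadr (-5.29), Siglec5 (-4.93), Slco4a1 (-4.59), Mgam (-4.43) and Tmem40 (-4.40), and higher for Mcam (6.25), Acvrl1 (3.28), Ptgir (3.28), Cd55 (3.13) and Il18r1 (2.54), on the log2 scale. For Cxadr, Siglec5, Slco4a1, Mgam and Tmem40 the lymphodepleted M-MDSC libraries were all above the untreated ones. For Mcam, Cd55 and Il18r1 they were all below. Cxadr, Siglec5, Slco4a1 and Tmem40 passed the filter only through the untreated PMN-MDSC libraries, which favoured the direction of their difference. For Acvrl1 the lymphodepleted PMN-MDSC libraries were all above the untreated ones, averaging 228 in untreated and 2050.5 in lymphodepleted PMN-MDSCs. The call for Siglec5 was lost with library weights, that for Tmem40 with a pseudocount of 5 and with library-total scaling, and that for Ptgir without the 3 shallowest PMN-MDSC libraries.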

How the results depend on the processing

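The count of genes called between M-MDSCs and PMN-MDSCs stayed within 1.5 times of 6337 under each of the settings run, between 5699 (without the 3 shallowest PMN-MDSC libraries) and 7977 (library weights), and between 5124 and 5411 when each of the 6 libraries was left out, where 10879 to 11248 genes passed the filter. Same-numbered M-MDSC and PMN-MDSC libraries correlated at 0.027, 0.024 and 0.0058 in their deviations from the group means. Such correlations cannot show whether same-numbered libraries came from the same mouse, since a shared mouse need not leave a shared deviation. In the fit with the replicate block 6274 were called, and pairing by number changed the interaction counts to 0 and 129; in the 6 libraries alone 7524 were called and 7531 with the block.

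For the contrast with the KO label, 2 genes were called, against 7 with library weights, 1 with library-total scaling, 1 without Rn45s and Malat1 in the total, 22 with no filter and 0 with the replicate block; leaving out 1 library gave 0 to 3. It was not run with edgeR or DESeq2, since 2 of its libraries were left out of the count tests. For the lymphodepletion contrast, 111 were called, against 508 with DESeq2, 66 with library-total scaling, 64 after quantile normalization and 235 without the 3 shallowest PMN-MDSC libraries; leaving out 1 library gave 27 to 306. The cause was not tested.

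Sign changes were few. With library-total scaling, Cebpg was 0.67, Il18r1 0.0577, Ndufs1 0.14 and S100a6 0.0159; without Rn45s and Malat1 in the total they were 0.67, 0.0531, 0.14 and 0.011. After quantile normalization Actb was 0.52, Cebpb 0.16 and S100a6 0.0037. Library weights, the depth exclusion and the totals without Rn45s and Malat1 were added after seeing the data. The shallowest of the 6 libraries compared had 5509190 reads. Among the libraries of the other contrasts, untreated KO-labelled PMN-MDSC replicate 1 had 4874429 and lymphodepleted WT-labelled PMN-MDSC replicate 1 had 3249647. With 3 libraries a group and these depths, differences of low genes are the least certain.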

Other observations

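The Schlafen and matrix metalloproteinase families were looked at after their values were seen. Of 7 tested Schlafen genes, regulators of myeloid and lymphoid growth, 2 were called higher in M-MDSCs and 3 lower. Slfn4 averaged 1075 ± 165 in M-MDSCs and 85657 ± 2080.2 in PMN-MDSCs (SD, n = 3 each), and Slfn1 averaged 1199 ± 139 in M-MDSCs and 6701 ± 975 in PMN-MDSCs. Its relative Slfn3 went the other way, averaging 153 ± 15.3 in M-MDSCs and 50.8 ± 31.6 in PMN-MDSCs. These genes lie in a cluster of close relatives on chromosome 11, and reads may have been shared out among them. Of 6 tested metalloproteinase genes, 1 was called higher and 3 lower. Beside both families, 26.2% of all tested genes were called higher and 28.9% lower. Mmp19 averaged 170.5 ± 35.6 in M-MDSCs and 14.9 ± 3.52 in PMN-MDSCs, whereas Mmp25, a membrane-bound protease of neutrophils, averaged 6.31 ± 2.16 in M-MDSCs and 902 ± 136 in PMN-MDSCs.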
